A study of Mus musculus with 12 samples.

Results

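Adipocytes depend on PPARγ, a nuclear receptor that binds DNA as a heterodimer with a retinoid X receptor (RXR) and switches on the genes of fat storage and fat burning. It belongs to a family with PPARα, best known from fatty acid oxidation in the liver, and PPARδ, which is present in most tissues. RXRα, RXRβ and RXRγ are the shared partners of these receptors and of many others, among them LXRα, the oxysterol receptor that controls cholesterol export and lipogenesis. The RNA of 7 genes was examined here, Pparg, Ppara, Ppard, Rxra, Rxrb, Rxrg and Nr1h3, which encodes LXRα. They were chosen by name, and all 7 were found among the 55573 genes of the count table and passed the filter on low counts.

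The cells were stromal vascular cells of mouse inguinal white fat, the cells left once mature adipocytes have been removed, which were differentiated into adipocytes in culture. WT mice carried wild-type PPARγ, TA mice the T166A allele, in which alanine replaces the threonine T166 of the DNA-binding domain and cannot be phosphorylated, and TD mice the T166D allele, in which aspartate imitates the phosphorylated residue. The mutations were made in the germline with CRISPR-Cas9 in a C57BL/6 background and were homozygous, so every cell of a culture carried them. Each genotype had 4 libraries. All cultures received the same induction for 4 days with IBMX (0.5 mM), indomethacin (125 nM), insulin (850 nM), triiodothyronine (1 nM) and dexamethasone in 10% serum, and were harvested on day 8. The age of the mice and the number of animals behind the 4 cultures were not given in the sources used here, so the p-values measure the spread between these cultures.

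The mutated codon lies in a stretch of Pparg that the other PPAR genes share more than the RXR genes and Nr1h3 do. The reference coding sequence around it is shown to place the mutation and to show what stands at the same position of the other 6 genes, found by alignment of the translated reading frames. The codon in capitals is the codon of T166 in the longest Pparg reading frame of 505 codons (GENCODE M21, GRCm38, chr6:115450959-115450961, plus strand), in exon 4 of the 7 exons of that transcript, and each line has 5 codons on both sides of it.
Pparg: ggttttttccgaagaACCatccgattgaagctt
Ppara: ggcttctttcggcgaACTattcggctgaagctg
Ppard: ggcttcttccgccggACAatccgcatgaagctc
Rxra: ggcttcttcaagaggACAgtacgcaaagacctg
Rxrb: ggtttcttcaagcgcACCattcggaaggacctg
Rxrg: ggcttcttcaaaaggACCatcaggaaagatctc
Nr1h3: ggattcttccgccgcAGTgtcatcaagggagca
The capital codon encodes threonine in all 3 PPAR genes and all 3 RXR genes, and serine in Nr1h3. Of the 33 bases, 24 were the same as in Pparg for Ppard and 23 for Ppara, against 20 for Rxrb, 20 for Rxrg, 17 for Rxra and 14 for Nr1h3. The mutations change Pparg alone.

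Depth was 18823619 to 20324286 counts per library in WT, 16950175 to 18182526 in TA and 16553324 to 18357864 in TD. The cultures held adipocytes by their markers: all 8 adipocyte markers, such as Adipoq and Plin1, were detected in every genotype. The summed level of these markers was 12440 to 14827 CPM (counts scaled to a common library size) in WT, 12835 to 16761 CPM in TA and 8260 to 10129 CPM in TD. Markers of other cells differed as well, though those of macrophages passed the test described below only between TD and TA. The summed 12 preadipocyte and fibroblast markers were at 10210 to 13558 CPM in WT, 11491 to 20603 CPM in TA and 17741 to 25925 CPM in TD, with Dlk1 at 0 in WT and TD. The 8 endothelial markers were at 38.0 to 67.4 CPM, 66.9 to 110 CPM and 119 to 152 CPM, in the same order. The 10 macrophage markers were at 299 to 872 CPM, 163 to 638 CPM and 667 to 904 CPM. None of the macrophage markers was called in either mutant against WT (adjusted p under 0.05, edgeR). Of all tested genes 29.2% were called for TD and 11.1% for TA. At an unadjusted p under 0.05, 2 macrophage markers were higher in TD and 4 lower in TA. In TD against TA 3 were called, all higher, where 7.33% of all tested genes were called higher. The 18 skeletal muscle markers were at 8.32 to 18.7 CPM in WT, 26.1 to 94.9 CPM in TA and 26.7 to 353 CPM in TD, with Myod1, Myf5, Myf6 and Myog at 0 in all WT libraries. TD replicate 3 (353 CPM) and TD replicate 4 (207 CPM) stood above all other libraries in muscle marker RNA. In bulk RNA of such cultures, fewer adipocytes and less RNA of a gene per adipocyte cannot be told apart. The part that the mix of cells played in the results on the receptors and the listed target genes was not tested.

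Pparg was by far the most abundant of the 7 RNAs, and Rxra was the leading RXR. Levels of different genes were compared as FPKM, which is CPM divided by the kilobases of exon of the gene. In WT the mean level was 119.9 ± 6.72 FPKM for Pparg (SD, n = 4), 37.2 ± 1.496 FPKM for Rxra and 34.8 ± 1.62 FPKM for Nr1h3. Ppard followed at 13.3 ± 0.984 FPKM and Rxrb at 12.3 ± 0.149 FPKM, and Rxrg at 3.18 ± 0.741 FPKM and Ppara at 2.64 ± 0.517 FPKM came last. Among neighbours in this order, the libraries of Rxra and Nr1h3 overlapped, as did those of Rxrg and Ppara, and the other neighbours were apart. TA had the same 5 leading genes in the same order, with Rxra at 55.7 ± 3.98 FPKM clear of Nr1h3 at 35.6 ± 5.49 FPKM, and with Rxrg (1.26 ± 0.132 FPKM) below Ppara (2.73 ± 0.561 FPKM). In TD the order was that of WT, with Pparg at 80.3 ± 8.20 FPKM, and Rxrg (1.63 ± 0.437 FPKM) and Ppara (1.62 ± 0.235 FPKM) overlapped. These orders hold for the length of all exons and may change with another length. The longest transcript has 4905 of the 5462 exon bases for Rxra and 1985 of 2515 for Nr1h3.

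**Figure D1:**
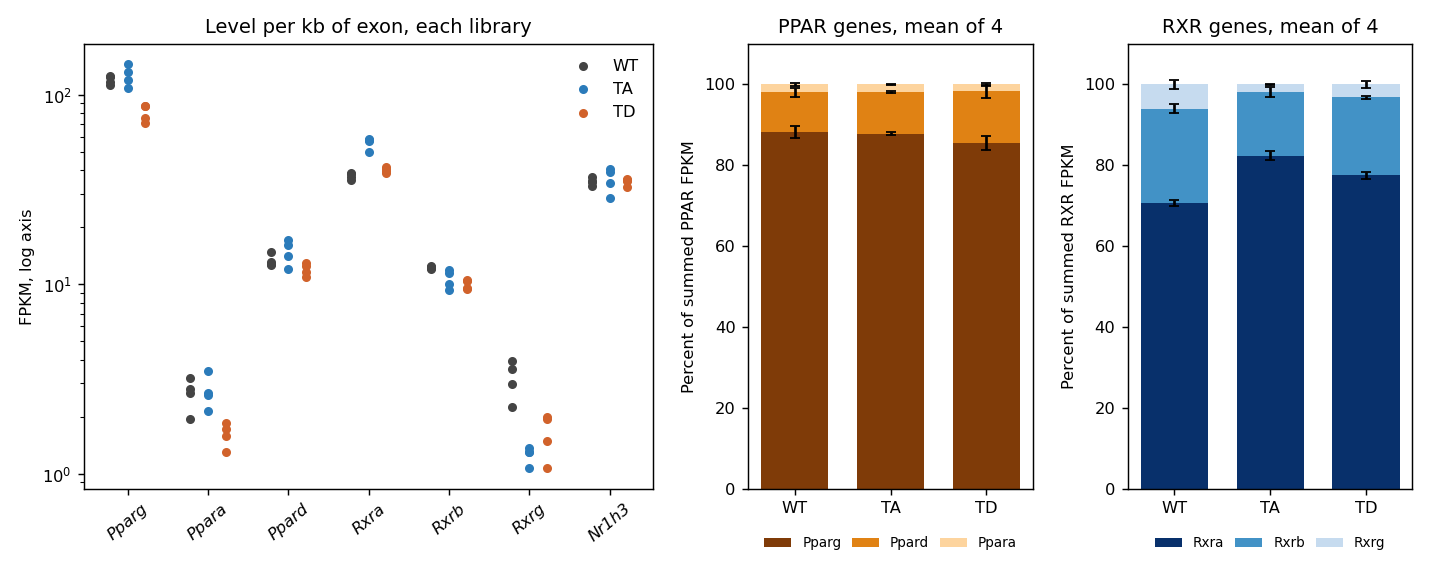
Left, level of each receptor gene in FPKM on a log axis, with 1 point per library and the genotypes side by side. Centre and right, mean share of each gene in the summed FPKM of the PPAR and of the RXR genes, with the SD of each segment (n = 4) at its upper edge. Pparg holds 85.4% to 88.2% of the PPAR signal in all genotypes, whereas the share of Rxra is 70.7% in WT, 82.4% in TA and 77.5% in TD.

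Within the PPAR family, Pparg made up 88.2% ± 1.41 (SD, n = 4) of the summed FPKM in WT, 87.8% ± 0.434 in TA and 85.4% ± 1.72 in TD. Ppard accounted for 9.84% ± 1.11, 10.3% ± 0.365 and 12.8% ± 1.504, and Ppara for about 2% in each genotype (1.96% ± 0.435, 1.88% ± 0.184 and 1.74% ± 0.325). The RXR family was more evenly divided and differed more between the genotypes. Rxra held 70.7% ± 0.824 of the RXR signal in WT, 77.5% ± 0.946 in TD and 82.4% ± 1.16 in TA, with no overlap between the libraries of any 2 genotypes. Rxrb held 23.3% ± 1.04, 19.4% ± 0.405 and 15.8% ± 1.138 in the same order, also without overlap. Rxrg had the smallest share, with 6.00% ± 1.21 in WT, 3.15% ± 0.841 in TD and 1.86% ± 0.0680 in TA. Shares and FPKM depend on the length taken for a gene, and with the longest transcript in place of all exons Rxra held 65.3%, 72.5% and 78.0%.

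Between genotypes each gene was compared by edgeR's quasi-likelihood test with Benjamini-Hochberg adjustment over the 15117 genes tested, and a gene was called at an adjusted p under 0.05. In TD against WT, 4 of the 7 receptor genes were called, all 4 lower (Pparg, Ppara, Rxrb and Rxrg), where 29.2% of all tested genes were called, 15.1% higher and 14.2% lower. TA against WT had 1 gene higher (Rxra) and 1 lower (Rxrg), where 11.1% of all genes were called, 6.72% higher and 4.41% lower. Between TD and TA 4 were lower in TD (Pparg, Ppara, Ppard and Rxra), where 16.7% of all genes were called, 7.33% higher and 9.37% lower. The libraries of the genotypes compared did not overlap for 4 of the 7 genes between TD and WT, for 3 between TA and WT and for 3 between TD and TA, where this held for 32.2%, 13.6% and 19.9% of all tested genes. TD and TA were compared with the same WT libraries, so these counts are not independent of each other. Without TD replicates 3 and 4, the libraries with the most muscle marker RNA, 2 genes were called in TD against WT (Pparg and Ppara) and 2 in TD against TA (Pparg and Rxra), in a fit with 2 TD libraries.

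**Figure D2:**
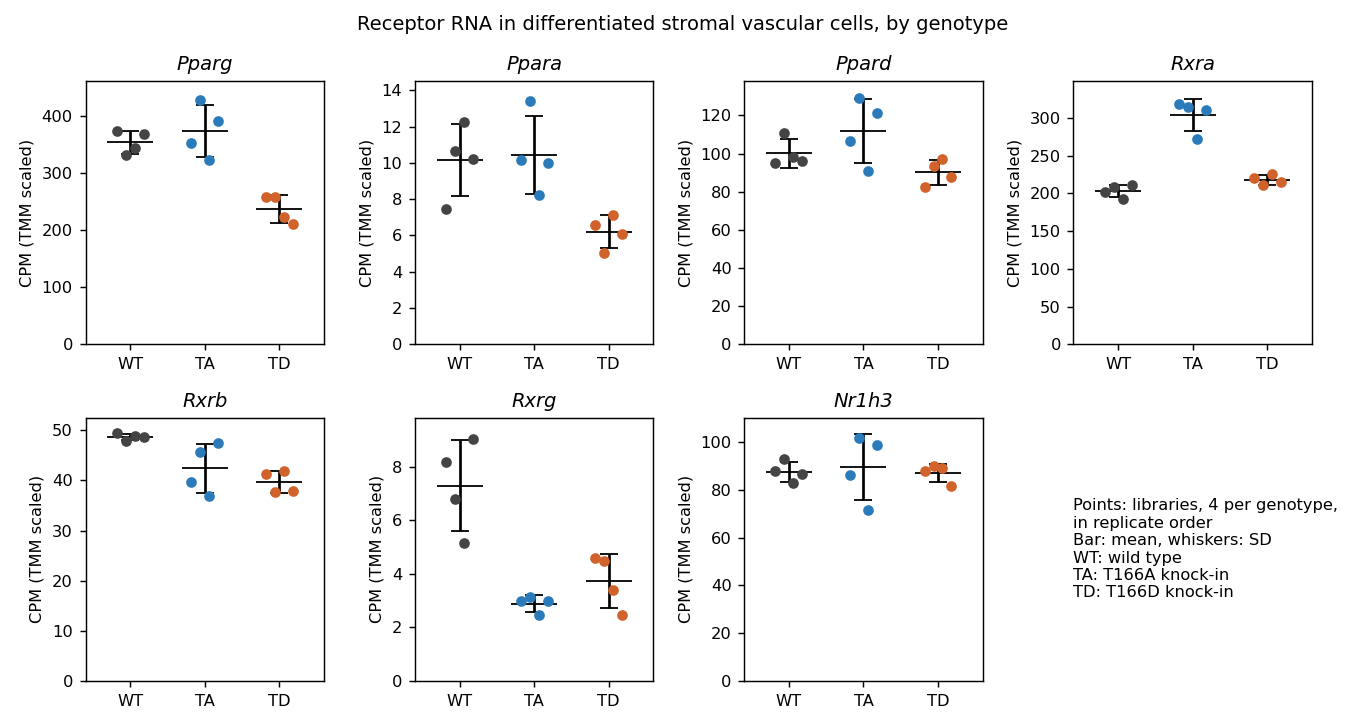
CPM of the 7 receptor genes in each library (points, 4 per genotype), with the mean (bar) and SD (whiskers); each panel has its own axis, starting at 0. The TD libraries of Pparg (210 to 258 CPM) lie below all WT and TA libraries, the TA libraries of Rxra (272 to 319 CPM) lie above all others, and Rxrg is below all WT libraries in both mutants.

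Pparg, the master regulator of fat cell formation and the gene that carries the mutations, had less RNA in TD than in the other genotypes, and its difference between TA and WT did not pass the test. The WT libraries had 373, 331, 344 and 368 CPM of Pparg. The TA libraries had 353, 428, 322 and 391 CPM, a range that spans that of WT. The TD libraries had 258, 257, 223 and 210 CPM, all below the lowest library of the other genotypes. Pparg fell by 33.0% in TD against WT, a log2 fold change of -0.58 (SE 0.0946, adjusted p = 0.000429, edgeR), and it fell by 36.5% in TD against TA (-0.66, SE 0.0947, adjusted p = 0.000269). The log2 fold change of TA against WT was 0.08, with a 95% confidence interval from -0.12 to 0.28 (adjusted p = 0.670). Each library had 3584 to 7189 Pparg counts, whereas the antisense gene Gm44079 inside the locus had 1 to 22. The counts do not separate the mRNAs of PPARγ1 and PPARγ2, nor the alleles.

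Ppara was scarce, with 93 to 247 counts per library, and it too was lower in TD. Its level was 7.47, 10.7, 12.2 and 10.2 CPM in the WT libraries and 10.2, 13.4, 8.24 and 10.0 CPM in the TA libraries. In TD it was 6.59, 5.01, 7.13 and 6.10 CPM, below every library of the other genotypes. Ppara fell by 38.8% in TD against WT (log2 fold change -0.71, SE 0.176, adjusted p = 0.00678), and it fell by 40.5% in TD against TA (-0.75, SE 0.177, adjusted p = 0.00909). Between TA and WT Ppara did not pass the test (0.04, 95% confidence interval -0.32 to 0.40). Without TD replicates 3 and 4 Ppara remained called in TD against WT (adjusted p = 0.0395) and missed the threshold in TD against TA (-0.85, adjusted p = 0.0534).

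Ppard had smaller differences than Pparg and Ppara in the comparisons that include TD. The WT libraries had 95.0, 111, 98.2 and 96.1 CPM of Ppard, the TA libraries 106, 129, 90.9 and 121 CPM, and the TD libraries 82.5, 93.3, 97.1 and 87.5 CPM. The lowest TA library lay inside the range of TD. Ppard fell by 19.5% in TD against TA (log2 fold change -0.31, SE 0.0978, adjusted p = 0.0376), a call that held without 4 of the 12 libraries and was lost without each of the other 8, the adjusted p reaching 0.151 without TA replicate 2. Against WT its log2 fold change was -0.15 for TD (95% confidence interval -0.36 to 0.06) and 0.16 for TA (-0.04 to 0.37), and neither passed the test.

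**Figure D3:**
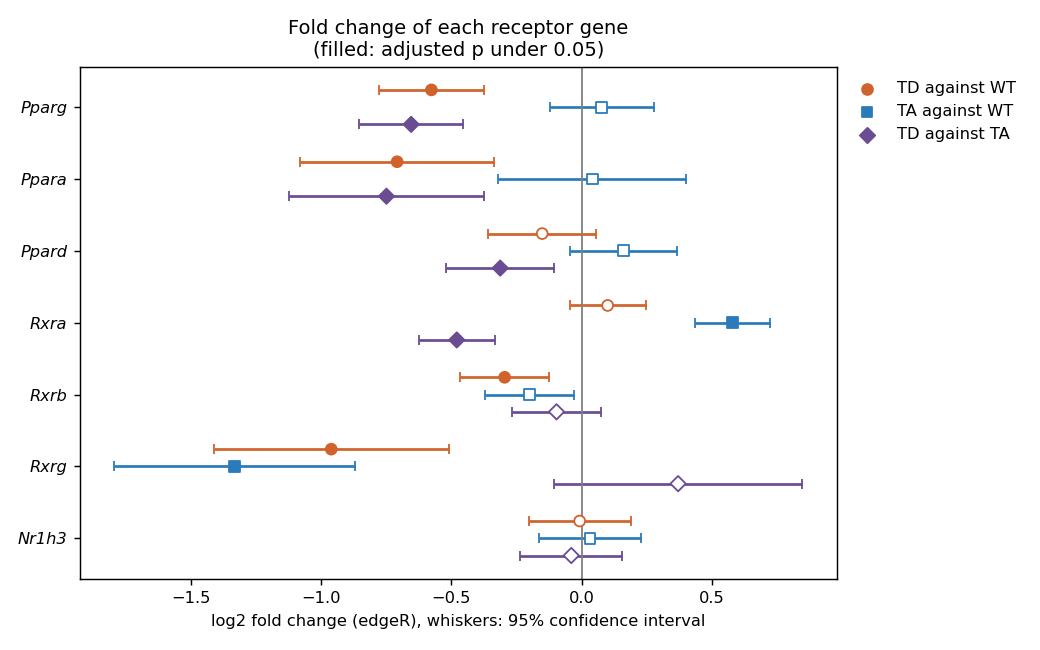
Log2 fold change of each receptor gene in TD against WT (circles), TA against WT (squares) and TD against TA (diamonds) from edgeR, with 95% confidence intervals; filled symbols have an adjusted p under 0.05. Pparg and Ppara are called lower in TD against both WT and TA, Rxra is called higher in TA against WT, and Rxrg has the lowest values, -0.96 in TD against WT and -1.33 in TA against WT.

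The RXR genes moved separately. Rxra, the main partner of PPARγ in fat, was higher in TA. Its level was 201, 208, 193 and 211 CPM in WT and 319, 314, 272 and 311 CPM in TA. TD had 220.4, 211, 226 and 215 CPM of Rxra, close to WT, with the lowest TD library just inside the WT range. Rxra was 1.49-fold higher in TA than in WT (log2 fold change 0.58, SE 0.0689, adjusted p = 4.31e-05) and fell by 28.3% in TD against TA (-0.48, SE 0.0688, adjusted p = 0.000252). In TD against WT its log2 fold change was 0.10 (95% confidence interval -0.05 to 0.25, adjusted p = 0.297). Both calls held without any single library and without TD replicates 3 and 4.

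Rxrb, the RXR found in most tissues, was slightly lower in TD. WT had 49.4, 48.0, 48.9 and 48.6 CPM of Rxrb, the tightest spread of any of the 7 genes (coefficient of variation 1.21%). TA had 39.8, 45.6, 36.9 and 47.4 CPM, and TD 41.2, 37.7, 41.9 and 37.9 CPM, so that all 8 mutant libraries were below all 4 WT libraries. Rxrb fell by 18.5% in TD against WT (log2 fold change -0.30, SE 0.0810, adjusted p = 0.0120). For TA the log2 fold change against WT was -0.20 and missed the threshold (adjusted p = 0.131), but passed it without TA replicate 4 (-0.27, adjusted p = 0.0436). Without TD replicates 3 and 4 the TD difference was of the same size and was no longer called (-0.30, adjusted p = 0.0888).

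Rxrg, the form best known from skeletal muscle and brain, had the largest fold changes of the 7 genes against WT and the fewest counts (42 to 165 per library). It was at 8.20, 6.80, 5.15 and 9.04 CPM in WT, at 2.98, 3.14, 2.45 and 3.00 CPM in TA, and at 4.60, 4.47, 3.41 and 2.46 CPM in TD. All mutant libraries were below the lowest WT library. Rxrg fell by 60.3% in TA against WT (log2 fold change -1.33, SE 0.218, adjusted p = 0.000799), and it fell by 48.7% in TD against WT (-0.96, SE 0.213, adjusted p = 0.00324). Between the mutants the log2 fold change of TD against TA was 0.37 (95% confidence interval -0.11 to 0.85, adjusted p = 0.281). Muscle marker RNA was higher in the mutants, whereas Rxrg was lower. Within TD the libraries with the most muscle marker RNA, replicates 3 and 4, had the lowest Rxrg, but within WT replicates 1 and 4, with the most (18.7 and 15.4 CPM), had the highest Rxrg, and within TA so did replicate 2 (94.9 CPM). The part of muscle RNA in the level of Rxrg was not tested. Without TD replicates 3 and 4 Rxrg was not called in TD against WT (-0.68, adjusted p = 0.0804).

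The promoters of the 7 genes were searched on both strands for AGGTCA, the core sequence that these receptors bind. The search used RefSeq windows (GRCm38.p6) from 250 bases before to 50 after an annotated start. All 7 genes had windows, 13 in total, and 4 of them held AGGTCA, 1 each for Rxra and Rxrg and 2 for Pparg. Of 32851 windows of that length 16.3% held it. The direct repeat AGGTCANAGGTCA (DR1, to which PPAR and RXR heterodimers bind) was in none of the 13 and in 0.0396% of all windows, and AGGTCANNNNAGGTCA (DR4, to which LXR and RXR heterodimers bind) was in none and in 0.0152%; both contain the core sequence. Rxra and Rxrg, whose RNA changed in TA, also have windows without the core sequence, at chr2:27676951-27677250 and chr1:167598112-167598411. Their windows that hold it are shown, with that sequence in capitals: Rxra at chr2:27709042-27709341 and Rxrg at chr1:167618015-167618314, both on the plus strand.
Rxra: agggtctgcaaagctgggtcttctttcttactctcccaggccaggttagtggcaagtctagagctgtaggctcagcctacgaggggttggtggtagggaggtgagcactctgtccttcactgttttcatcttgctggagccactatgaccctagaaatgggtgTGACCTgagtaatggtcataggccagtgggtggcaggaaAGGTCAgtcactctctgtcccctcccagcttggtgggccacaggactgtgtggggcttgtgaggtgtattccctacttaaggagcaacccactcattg
Rxrg: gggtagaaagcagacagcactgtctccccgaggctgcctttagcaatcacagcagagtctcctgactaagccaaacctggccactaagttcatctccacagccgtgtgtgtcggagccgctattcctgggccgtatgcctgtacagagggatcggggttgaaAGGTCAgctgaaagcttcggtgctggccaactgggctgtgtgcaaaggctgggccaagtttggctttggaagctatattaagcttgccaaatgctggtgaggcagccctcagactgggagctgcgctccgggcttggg
The counts do not tell which of the annotated starts was used, and a part of these sites in the changes of RNA was not tested.

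Nr1h3 did not pass the test in any comparison. WT had 87.8, 92.8, 82.9 and 86.9 CPM of Nr1h3, TA 86.3, 102, 71.5 and 99.0 CPM, and TD 88.1, 89.8, 89.0 and 81.6 CPM. The ranges overlapped throughout. Against WT its log2 fold change was -0.01 for TD (95% confidence interval -0.20 to 0.19) and 0.03 for TA (-0.16 to 0.23), and that of TD against TA was -0.04 (-0.24 to 0.16), so that no interval reached beyond 0.24 in either direction. The sign of these values turned with the scaling and with the libraries used. Nr1h2, the gene of LXRβ, was at 71.7 ± 3.68, 75.5 ± 8.43 and 71.5 ± 2.05 CPM in WT, TA and TD (SD, n = 4) and was not called either.

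The balance of partner and receptor RNA differed between genotypes from both sides. Per kilobase, Rxra was at 0.311 ± 0.0209 (SD, n = 4) of the level of Pparg in WT, 0.443 ± 0.0392 in TA and 0.501 ± 0.0570 in TD. Libraries of WT (0.292 to 0.341) did not overlap those of TA (0.397 to 0.489) or TD (0.443 to 0.554), whereas TA and TD overlapped. In TA Rxra was higher, and in TD Pparg was lower. For all RXR over all PPAR RNA the ratio was 0.388 ± 0.0169, 0.472 ± 0.0371 and 0.551 ± 0.0478. These ratios combine values already tested above and are given as a description.

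Beside the summed adipocyte markers, which were also lower in TD, the receptors differed from each other. Of the 8 markers 6 were called lower in TD against WT, where 14.2% of all tested genes were. Lep and Retn were not called there. In TD against TA 6 were lower and Lep was higher (log2 fold change 0.72, adjusted p = 0.000951, edgeR). Of all tested genes 9.37% were called lower and 7.33% higher between the mutants. Pparg had 25.2 to 26.9 CPM per 1000 CPM of summed markers in WT, 24.9 to 25.5 in TA and 25.3 to 25.5 in TD, so that its level relative to the markers was nearly the same in all 12 libraries. Ppara overlapped between the genotypes, with a wider spread (0.504 to 0.955, 0.637 to 0.800 and 0.497 to 0.807). Relative to the markers Rxra was at 13.6 to 16.7 in WT, 18.7 to 22.7 in TA and 20.9 to 26.1 in TD, and Nr1h3 at 5.92 to 7.46, 5.57 to 6.30 and 8.69 to 10.1. Rxrg stayed lowest in TA on this measure, at 0.187 to 0.212 against 0.402 to 0.633 in WT, and TD (0.298 to 0.454) overlapped WT. Rxrb, which was lower in TD by CPM, had the higher mean in TD on this measure (3.74 to 4.74, against 3.33 to 3.86 in WT and 2.72 to 3.02 in TA), with TD and WT overlapping. Ppard was at 6.41 to 8.92 in WT, 7.08 to 7.73 in TA and 8.14 to 10.99 in TD. Of the summed marker level 54.1% to 63.2% was Fabp4, a fatty acid binding protein that is itself a target of PPARγ, and 5 of the 8 markers are also in the list of PPAR targets, so the markers are not a measure of adipocyte number that is independent of the receptor.

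**Figure D4:**
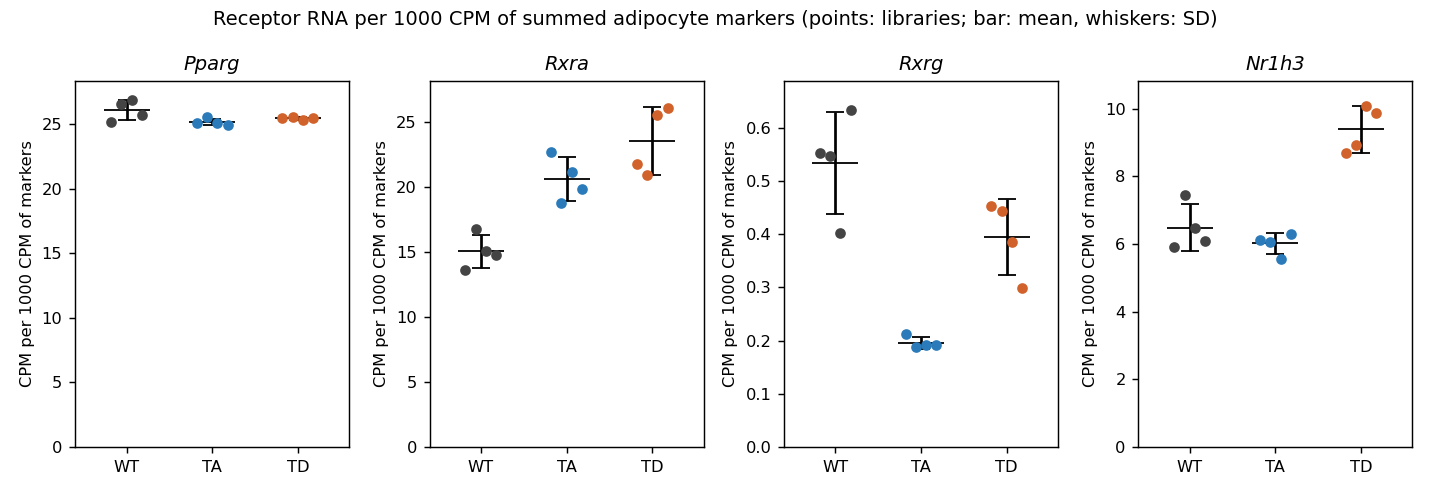
CPM of Pparg, Rxra, Rxrg and Nr1h3 per 1000 CPM of the 8 summed adipocyte markers, with 1 point per library, the mean (bar) and SD (whiskers) of 4 libraries. Pparg lies between 24.9 and 26.9 in all 12 libraries, Rxra is lowest in WT, Rxrg is lowest in TA, and Nr1h3 is highest in TD.

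The known targets of the PPARs mostly fell in TD. Of 40 listed targets 37 could be tested, Cidea and Ucp1 being too low and Gyk not used here. In TD against WT 30 were lower and 2 higher, where 14.2% of all tested genes were called lower and 15.1% higher. The median log2 fold change of the targets was -0.47 where that of all tested genes was 0.01. The 8 adipocyte markers, 5 of them also in the target list, had a median of -0.45. The largest falls were those of Pck1, an enzyme of glyceroneogenesis (3.77 CPM in WT and 0.694 CPM in TD, log2 fold change -2.42, SE 0.481, adjusted p = 0.00154), and of Plin5, a droplet protein that links stores to mitochondria (29.2 and 7.59 CPM, -1.94, SE 0.213, adjusted p = 5.67e-05). Fabp4 fell as well (-0.58, adjusted p = 0.000985), as did Adipoq, the gene of adiponectin (-0.28, adjusted p = 0.0254). Cpt1a, which admits fatty acids to mitochondria, was among those that rose (0.61, adjusted p = 0.0191). Without TD replicates 3 and 4, 19 targets were called lower and 1 higher.

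Against WT 10 PPAR targets of TA were higher and 2 lower, where 6.72% of all genes were called higher and 4.41% lower. The median of the targets was 0.13 beside -0.01 for all genes and 0.08 for the adipocyte markers. Slc27a1, a fatty acid transporter, rose from 296 CPM in WT to 827 CPM in TA (log2 fold change 1.48, SE 0.0797, adjusted p = 1.59e-08), and Gpd1, which makes glycerol 3-phosphate, from 465 to 1240 CPM (1.41, SE 0.116, adjusted p = 9.56e-07). Pck1 was lower in TA too (0.8295 CPM, -2.16, adjusted p = 0.00679), as was Acadvl, an enzyme of fatty acid oxidation (-0.29, adjusted p = 0.0438). Fabp4 (0.21) and Adipoq (0.14) were not called. Between the mutants 28 targets were lower in TD, where 9.37% of all genes were called lower and 7.33% higher. None of the targets was higher at an adjusted p under 0.05 in edgeR, with 1 higher at an unadjusted p under 0.05. The median of the targets was -0.57, beside 0.02 for all genes and -0.46 for the adipocyte markers. Plin5 (-2.09, adjusted p = 1.09e-05) and Gpd1 (-1.89, adjusted p = 6.38e-08) had the lowest values of the targets. The number higher for TA against WT ran from 6 to 13 when single libraries were left out, and was 6 without TA replicate 2 and 6 without WT replicate 3. Those called lower in TA were 4 without TA replicate 2 and 1 without any 1 of the WT libraries, TA replicate 1 or 3, or TD replicate 2 or 3.

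**Figure D5:**
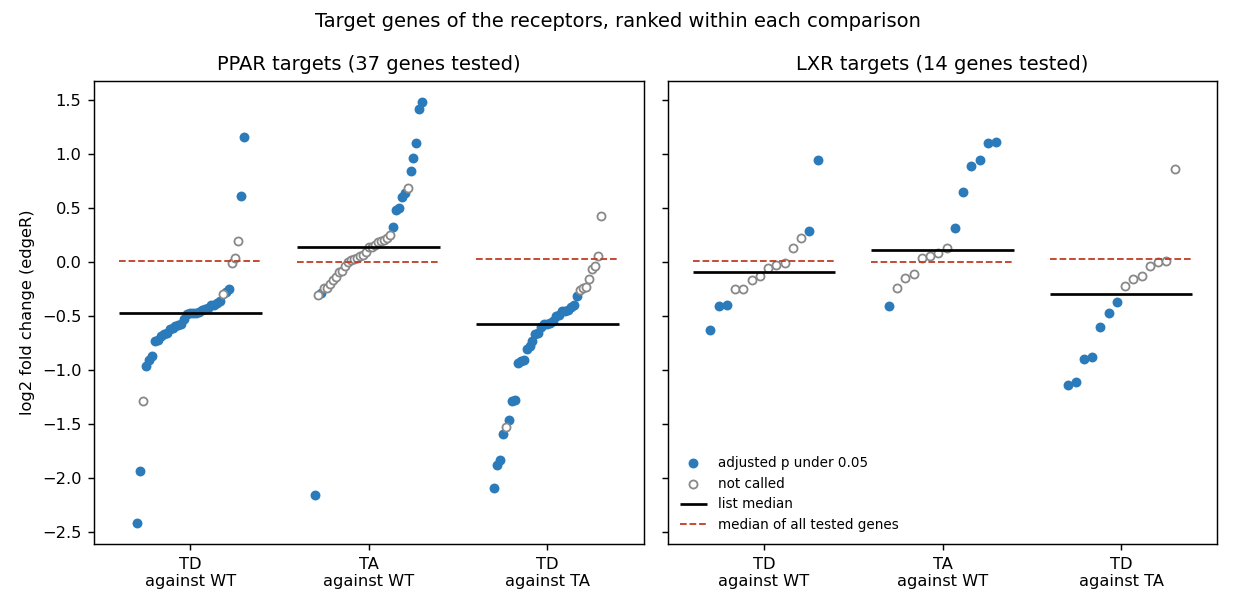
Log2 fold changes of 37 PPAR targets (left) and 14 LXR targets (right) for TD and for TA compared with WT and for TD compared with TA, ranked within each; filled points have an adjusted p under 0.05 in edgeR. Solid lines are list medians (PPAR targets -0.47, 0.13 and -0.57) and dashed lines the medians of all tested genes.

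LXR targets were called in each comparison. All 14 were tested, among them Nr1h3, which is also in the list of PPAR targets. Against WT 6 were higher and 1 lower in TA, where 11.1% of all genes were called, with a median of 0.11. Abcg1, a cholesterol exporter, had 57.2 CPM in WT, 124 CPM in TA and 56.1 CPM in TD (TA against WT 1.11, SE 0.0952, adjusted p = 1.61e-06), and Apoe, the lipid carrier, 1275, 2737 and 1487 CPM (1.10, SE 0.147, adjusted p = 0.000121). Srebf1, the lipogenic regulator, rose in TA (0.32, adjusted p = 0.0216), and Scd1, a fatty acid desaturase, fell in TA (-0.41, adjusted p = 0.0306). Abca1, the other main cholesterol exporter, had 612 ± 72.0, 670.4 ± 88.5 and 668 ± 38.8 CPM in WT, TA and TD (SD, n = 4) and was not called in any comparison. The fall of Scd1 in TA was not called without WT replicate 1, 3 or 4 or TA replicate 3 or 4.

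In TD against WT 2 LXR targets were higher, Arl4c (0.95, adjusted p = 0.0361) and Mylip (0.28, adjusted p = 0.0197), and 3 lower, where 29.2% of all genes were called, with a median of -0.09. The lowest were Scd1 (-0.63, adjusted p = 0.000953) and Lpcat3, which remodels phospholipids (-0.41, adjusted p = 0.00146). The number called higher ran from 0 to 2 when single libraries were left out, with none left without WT replicate 1, WT replicate 4 or TD replicate 1. The third that fell was Lpl, a lipase that is also in the PPAR list and was named after its value was seen. Between the mutants 7 were lower in TD, where 16.7% of all genes were called. None of the LXR targets was higher in edgeR at an adjusted p under 0.05, with 1 higher at an unadjusted p under 0.05. The median was -0.30, and Abcg1 (-1.14, adjusted p = 1.44e-06) and Pltp, a phospholipid transfer protein (-1.11, adjusted p = 0.000208), had the largest falls.

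Of 12 other receptors listed as partners of RXR, 9 could be tested. For TD against WT 3 were higher and 1 lower, where 29.2% of all genes were called. For TA the numbers against WT were 3 higher and none lower in edgeR (2 lower at an unadjusted p under 0.05). Of all genes 11.1% were called there. Between the mutants 1 was higher in TD and none lower in edgeR (1 lower at an unadjusted p under 0.05). Of all genes 16.7% were called between them. Nr1h4, the gene of the bile acid receptor FXR, was at 0.765 ± 0.316 CPM in WT, 2.03 ± 0.179 CPM in TA and 2.78 ± 0.563 CPM in TD (SD, n = 4), which is 11 to 59 counts per library. Against WT it rose by 1.85 on the log2 scale in TD (adjusted p = 0.000262) and by 1.40 in TA (adjusted p = 0.00439). Rara, the gene of retinoic acid receptor α, rose in both mutants (0.45, adjusted p = 0.00216 in TD and 0.39, adjusted p = 0.0137 in TA). So did the thyroid hormone receptor gene Thra, named after its values were seen (0.19, adjusted p = 0.0499 in TD and 0.23, adjusted p = 0.0399 in TA). Its relative Thrb fell in TD (-0.35, adjusted p = 0.0308). Between the mutants Nr4a1, an immediate early gene, was higher in TD (0.80, adjusted p = 0.00851). The fall of Thrb was not called without WT replicate 3, WT replicate 4, TD replicate 2 or TD replicate 4. The rises in TA went from 3 to 1 without TA replicate 1. Those in TD against WT ran from 2 to 3 when single libraries were left out.

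Of 17 genes that supply or clear retinoids, the source of RXR ligands, 11 could be tested. For scale, the share of all tested genes called was 29.2% for TD and 11.1% for TA, each compared with WT. Between the mutants it was 16.7%. In TD against WT 3 were higher, among them Aldh1a2, which makes retinoic acid (2.10, adjusted p = 0.00339, from 0.574 to 2.49 CPM), and Adh1, named after its value was seen (0.27), and Dhrs3 was lower (-0.41, adjusted p = 0.0295). In TA Retsat, which saturates retinol, rose from 110 to 155 CPM (0.50, adjusted p = 0.0100) and Adh1 rose (0.34, adjusted p = 0.0174). Rbp4, the retinol carrier secreted by fat, fell in TA from 644 to 411 CPM (-0.65, adjusted p = 0.00486), and Rdh10, a retinol dehydrogenase, fell as well (-0.53, adjusted p = 0.0126). Between the mutants Retsat was lower in TD (-0.56, adjusted p = 0.00405) and none was higher in edgeR (2 at an unadjusted p under 0.05). For TD against WT the retinoid genes called higher went from 3 to 1 without WT replicate 3, WT replicate 4, TD replicate 2 or TD replicate 4, and those called lower from 1 to 0 without WT replicate 1, WT replicate 4, TD replicate 1, TD replicate 3 or TD replicate 4. The rises in TA went from 2 to 1 without WT replicate 4.

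The study names PKCα as the kinase of T166. Among 10 genes listed for known or predicted kinases of PPARγ, Prkca, the gene of PKCα, was higher in TD. Its level was 28.2 ± 2.62 CPM in WT, 31.4 ± 2.77 CPM in TA and 37.6 ± 4.43 CPM in TD (SD, n = 4). Against WT the log2 fold change was 0.42 for TD (SE 0.0987, adjusted p = 0.00497) and 0.16 for TA (adjusted p = 0.350), and TD against TA had 0.26 (adjusted p = 0.0824). Cdk7 was lower in TD against WT (-0.20, adjusted p = 0.0398), and the other 8 were not called there. In that comparison 29.2% of all tested genes were called, a larger share than in this list. The fall of Cdk7 was lost without WT replicates 2, 3 or 4 or any 1 of the TD libraries, each left out singly. Between TA and WT none of the 10 was called in edgeR, with 1 higher in TA at an unadjusted p under 0.05. Between the mutants none was called either, with 1 higher in TD at that level.

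The genes with the most similar pattern over the 12 libraries were found by the root mean square (RMS) difference of log2 CPM after each gene was centred on its own mean. For Pparg they were Swi5 (0.0677), Csad (0.0719) and Gnpat (0.0720), against an RMS of 0.317 of Pparg around its own mean. Those most like Rxra were Smoc1 (0.0774), Rnf145 (0.0824) and Ppp1r3d (0.0951), against 0.260. For Rxrg they were Pygb (0.186), Cyp27a1 (0.215) and Alad (0.220), against 0.611. Ppara was nearest to Gramd1b (0.166), Gm9923 (0.198) and Cnst (0.198), Ppard to Zfyve27 (0.0721), Plekhg5 (0.0782) and Sesn1 (0.0789), and Rxrb to Inppl1 (0.0523), 1810043G02Rik (0.0554) and Asl (0.0609). The nearest genes differ from member to member, and the libraries share their genotypes and cell mix, so likeness in this sense is a description.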

How the data were processed

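The authors deposited raw read counts per gene for 12 libraries, 4 of each genotype. Per the methods, reads were aligned with HISAT2 to GRCm38. The submitters' processing notes also name bcl2fastq 2.17.1.14, cutadapt 1.9.1, HISAT2 2.0.1 and HTSeq 0.6.1, without their roles, and the strand setting is not given in the sources used here. Each library's own file equalled its column of the table. No 2 libraries of a genotype agreed within sampling noise (chi-square per degree of freedom 4.88 to 37.5).

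Genes were kept by filterByExpr (minimum count 10, minimum total 15), scaled by TMM (factors 0.957 to 1.04) and fitted together with edgeR 4.0.16 (quasi-likelihood, two-sided, R 4.3.3). CPM use the scaled library sizes. DESeq2 1.42.0 and the other settings of the closing section were alternatives, and the steps were tested on simulated data. Exon lengths and positions are from GENCODE M21, in which 99.7% of identifiers were found. Alignments used Biopython 1.88. Replicate numbers did not pair the libraries.

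The members and lists were chosen with earlier results of these data known. The text names the 7 members, in each pathway list and comparison the 2 largest rises and 2 largest falls among called genes, the 6 genes Nr1h2, Prkca, Srebf1, Abca1, Fabp4 and Adipoq, and the 3 genes most like each member called at least once. Some genes that this rule names are not reported here. Intervals cover the spread between cultures.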

Additional observations from a re-analysis of the deposited data

Results flagged for a closer look

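Rxra in TA replicate 3 (272 CPM) lay apart from the other 3 TA libraries (311 to 319 CPM), with a gap of 0.834 of the range of the genotype, which is past Dixon's 95% critical value for 4 samples. It was the only one of 21 combinations of gene and genotype past that value, and chance flags about 5% of them. The same library had the lowest level of each of the 7 receptor genes among the 4 TA libraries. Of these 4 it also had the most macrophage (638 CPM), preadipocyte and fibroblast (20603 CPM) and endothelial (110 CPM) marker RNA. Its adipocyte marker RNA was the lowest of the 4 (12835 CPM). The part of this cell mix in its Rxra level was not tested. For Rxra the library still lay above all WT and TD libraries.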

How the results depend on the processing

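The number of receptor genes called was 4 in TD against WT without any single library, 2 to 3 in TA against WT and 3 to 4 in TD against TA. DESeq2, its size factors, library totals, other filters and fits to the 2 genotypes compared left these counts within 1.5 times the values reported. Without TD replicates 3 and 4, chosen after seeing the data for their muscle marker RNA, TD against WT had 2 calls and TD against TA also 2; over all genes the calls fell from 4418 to 1516 and from 2524 to 634 with these fewer samples. Single libraries moved the count over all genes in TD against TA between 1422 and 3526 (1422 without TA replicate 2, 1586 without TD replicate 3, 1432 without TD replicate 4).

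Of the 441 alternative fold changes of single receptor genes, 413 kept direction and side of the threshold, 14 lost the call, 1 gained it and 13 turned sign, all of the latter in differences that were not called. For Nr1h3 TD against WT the value was 0.0604 with library totals, 0.0061 with at least 10 counts in every library, 0.0222 without TD replicates 3 and 4, and -0.0319 to 0.0224 without single libraries. For Nr1h3 TD against TA it was 0.0401 with library totals and -0.135 to 0.0308 without single libraries, and for Nr1h3 TA against WT -0.0364 to 0.127. Ppara TA against WT was -0.103 to 0.140 without single libraries and -0.0116 without TA replicates 2 and 3, chosen after seeing the data as the ends of the macrophage marker range. Library totals shifted the median of all genes to 0.08 for TD against WT and to 0.10 for TD against TA, 64.6% and 64.7% of calls then being higher against 51.5% and 43.9%, and Ppard TD against TA was then not called (-0.23, adjusted p = 0.0970), nor in a fit to those 2 genotypes (-0.31, adjusted p = 0.0572). The cause was not tested.

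With a replicate block the receptor genes called were 4, 2 and 4 in the same order as without it. Same-numbered libraries of different genotypes did not deviate together (r of -0.237 to 0.196, above 0.1 in 2 of 12 pairs), and 2 of 12 libraries correlated best with their own number. Depth limits Rxrg and Ppara most, which had 42 to 247 counts per library.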
